A study of Mus musculus with 8 samples.

Results

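*Sftpa1* and *Sftpd*, the genes of surfactant proteins A and D (SP-A and SP-D), were selected by name, and both were found among the 25965 genes of the lung RNA-seq data. Total RNA of mouse lung was sequenced before birth, on embryonic day E18.5, and after birth, on postnatal day P1.5, and each of the 4 groups had 2 libraries. *Wfdc2*+/+ lungs carried the unaltered *Wfdc2* gene, which encodes a secreted WAP-domain protease inhibitor of the airway. *Wfdc2*GFP/GFP lungs carried, on both alleles, a GFP cassette made in TT2 embryonic stem cells in place of part of exon 1 and all of exon 2, from which the selection marker had been removed with CAG-Cre, so the gene was disrupted throughout the animal and not in the lung alone. The study describes the *Wfdc2*+/+ animals as littermate controls, but which libraries shared a litter, and the strain of these animals, are not given in the sources used here. The p-values therefore measure the spread between these libraries. Levels are given as log2 RPKM, in which reads are divided by the kilobases of the gene's span and by the size of the library (RPM where the span is left out), and differences between groups are therefore log2 fold changes.

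SP-A and SP-D are collectins, large oligomeric proteins in which a collagen-like stalk carries calcium-dependent lectin heads. Both are secreted into the alveolar lining by type II alveolar epithelial cells (AECIIs) and into the airway by club cells, where they bind sugars on microbes, aid their uptake by macrophages and take part in the structure and turnover of surfactant. They differ from the hydrophobic surfactant proteins SP-B and SP-C (*Sftpb* and *Sftpc*), which act in the lipid film itself. The amount of SP-A and SP-D in the lung is known to increase around birth.

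Both genes lie on chromosome 14 (mm10), with their 3′ ends towards each other. *Sftpa1* (ENSMUSG00000021789) spans 41131782 to 41136452 on the plus strand, and *Sftpd* (ENSMUSG00000021795) spans 41172212 to 41185198 on the minus strand. The interval between them is 35759 bases and holds *Mbl1*, the gene of mannose-binding lectin A, another collectin. GENCODE M21 lists 5 exons in the principal transcript of *Sftpa1* and 8 in that of *Sftpd*, and no annotated gene overlaps either span. The promoter of *Sftpa1* is shown because the SP-A gene is a known target of NKX2-1, a homeodomain factor of the lung epithelium, whose own level is given further on. The sequence is from RefSeq (GRCm38.p6), covers chr14:41131538-41131781 on the plus strand and ends at the base before the gene span. Capitals mark AAGTG, the core letters of NKX2 binding sites, on either strand, and the TATA box letters TATAAA.

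*Sftpa1* promoter: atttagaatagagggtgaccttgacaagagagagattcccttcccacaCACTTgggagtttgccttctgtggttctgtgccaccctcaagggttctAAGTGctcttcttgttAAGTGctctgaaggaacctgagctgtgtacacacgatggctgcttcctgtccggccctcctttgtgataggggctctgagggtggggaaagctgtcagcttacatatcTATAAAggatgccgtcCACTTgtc

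The sequence begins 250 bases before the RefSeq start, which lies a few bases inside the gene span. Positions are counted from that start and not from the last base shown. AAGTG occurred at 4 places in these 244 bases, starting at −202, −154, −138 and −14 from the RefSeq start, and 40.0% of 32851 promoters held it at least once in a window of the same length. TATAAA occurred once, at −30, and was present in 12.2% of the promoters. The E-box letters CANNTG, read by USF1 and USF2 among other factors, occurred at −202 and −14, where they overlap AAGTG read on the opposite strand, and 65.6% of the promoters held them. TGTTTA, letters of forkhead sites, did not occur in this window and was present in 11.9% of the promoters. A match of letters was not tested as a binding site.

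The libraries held 19457647 to 37209333 reads, and *Sftpa1* and *Sftpd* took 15038 to 107445 and 2047 to 88241 of them, so that counting error was at most 2.21% of any value given for the pair. *Wfdc2* had 8038 to 32845 reads in the *Wfdc2*+/+ libraries and 0 to 12 in the *Wfdc2*GFP/GFP libraries. AECII markers were abundant in every library, with *Sftpc* at 239772 reads or more. E18.5 *Wfdc2*GFP/GFP replicate 1 stood apart from the other E18.5 libraries. It had 1571 reads of the club cell gene *Scgb1a1*, against 17832 to 29018 in the other E18.5 libraries, 90980 reads of *Xist*, against at most 14602 in any other library, and 31.8% of its reads on genes spanning 50 kb or more, against 14.5% to 27.9% elsewhere. In every group, replicate 1 carried *Xist* and replicate 2 carried the Y-linked *Ddx3y*, so the 2 libraries of each group differed in these sex-linked RNAs. The main values that rest on E18.5 *Wfdc2*GFP/GFP replicate 1 are given with and without it. The 2 P1.5 *Wfdc2*+/+ libraries were the least alike of any pair of replicates, with 38.9% of the genes tested more than 2-fold apart, against 24.2% in E18.5 *Wfdc2*GFP/GFP and 3.86% and 12.9% in the other 2 groups, and with 15.2% and 23.6% of their reads on genes spanning 50 kb or more.

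*Sftpa1* was measured at similar levels in 3 of the 4 groups and at a higher level in *Wfdc2*GFP/GFP lungs after birth. Its log2 RPKM was 7.65 and 7.71 in E18.5 *Wfdc2*+/+ lungs, 6.44 and 7.67 in E18.5 *Wfdc2*GFP/GFP lungs, 7.34 and 8.30 in P1.5 *Wfdc2*+/+ lungs, and 9.48 and 9.62 in P1.5 *Wfdc2*GFP/GFP lungs. Both P1.5 *Wfdc2*GFP/GFP libraries were above all the others, whereas the *Wfdc2*+/+ libraries of the 2 stages overlapped. Of the genes tested, 18.7% had both P1.5 *Wfdc2*GFP/GFP libraries above both E18.5 *Wfdc2*GFP/GFP libraries, and 12.6% above both P1.5 *Wfdc2*+/+ libraries. The share above all the other libraries at once was not counted. The group means were 7.68 ± 0.04, 7.05 ± 0.87, 7.82 ± 0.68 and 9.55 ± 0.10 in the same order (SD, n = 2 each). From the lowest group to the highest the order was E18.5 *Wfdc2*GFP/GFP, E18.5 *Wfdc2*+/+, P1.5 *Wfdc2*+/+ and P1.5 *Wfdc2*GFP/GFP, and the libraries of the first 3 overlapped from one group to the next.

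*Sftpd* was higher after birth than before it in both genotypes, with the groups in the same order as for *Sftpa1*. Its log2 RPKM was 4.57 and 4.80 in E18.5 *Wfdc2*+/+ lungs, 2.08 and 4.57 in E18.5 *Wfdc2*GFP/GFP lungs, 6.13 and 5.75 in P1.5 *Wfdc2*+/+ lungs, and 7.85 and 7.86 in P1.5 *Wfdc2*GFP/GFP lungs. All 4 P1.5 libraries lay above all 4 E18.5 libraries, an arrangement found in this direction in 7.28% of the genes tested. The group means were 4.68 ± 0.16, 3.33 ± 1.76, 5.94 ± 0.27 and 7.85 ± 0.01 (SD, n = 2 each). Only the 2 E18.5 groups overlapped, and the replicates of E18.5 *Wfdc2*GFP/GFP were 2.49 apart on the log2 scale.

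**Figure D1:**
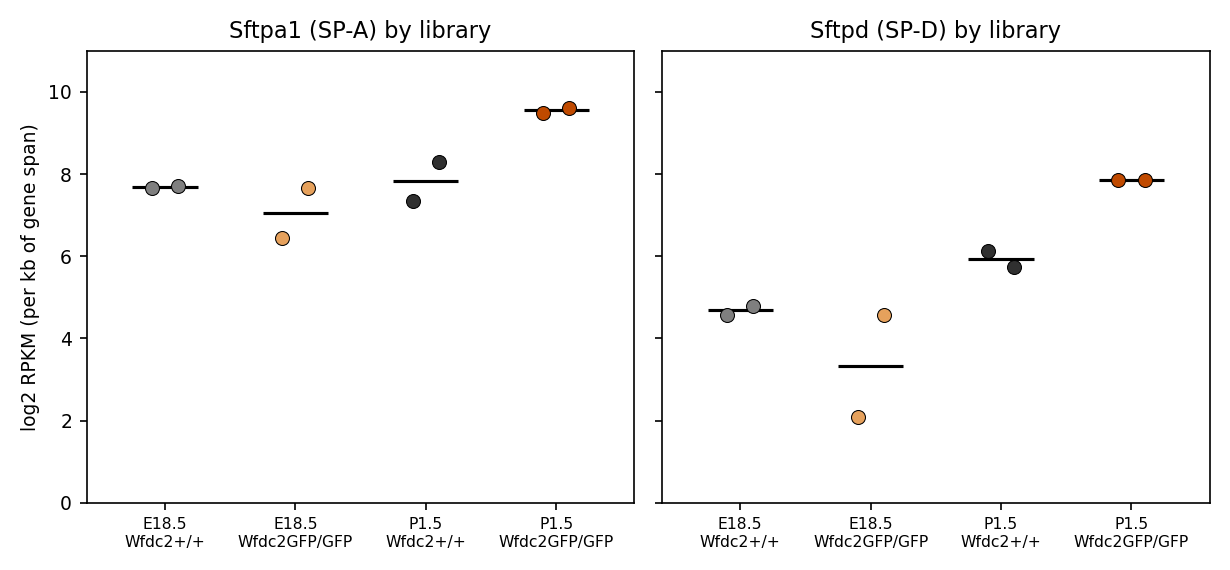
Log2 RPKM (per kilobase of gene span) of *Sftpa1* (left) and *Sftpd* (right) in each of 8 lung libraries, by stage and genotype; points are libraries, replicate 1 to the left, and bars are group means (n = 2). The 2 P1.5 *Wfdc2*GFP/GFP libraries are the highest for both genes, and E18.5 *Wfdc2*GFP/GFP replicate 1 is the lowest, at 6.44 and 2.08.

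The first comparison asked how each gene changed across birth in *Wfdc2*+/+ lungs. The difference between P1.5 and E18.5 was 0.14 for *Sftpa1* (SE 0.51, 95% confidence interval −1.05 to 1.32, limma adjusted p = 0.896) and 1.25 for *Sftpd* (SE 0.69, −0.35 to 2.86, limma adjusted p = 0.451), and neither gene passed the threshold of 0.05. In this comparison 0.0576% of the genes tested passed. For *Sftpd* both P1.5 libraries were above both E18.5 libraries, as for 27.4% of the genes tested. The *Sftpa1* value changed sign, to −0.34, without P1.5 *Wfdc2*+/+ replicate 2 and, to −0.30, with quantile normalization.

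In *Wfdc2*GFP/GFP lungs both genes rose across birth. *Sftpa1* rose by 2.50 (SE 0.51, 95% confidence interval 1.31 to 3.69, limma adjusted p = 0.0459), a 5.66-fold difference, and *Sftpd* rose by 4.53 (SE 0.69, 2.92 to 6.13, limma adjusted p = 0.0316), a 23.1-fold difference. In this comparison 4.55% of the genes tested passed the threshold. *Sftpd* stood at rank 51 and *Sftpa1* at rank 290 of 15627 genes, counted from the largest increase. For both genes the 2 P1.5 libraries lay above the 2 E18.5 libraries, which held for 18.7% of the genes tested. The median of the genes tested was −0.46 in this comparison and −0.15 in *Wfdc2*+/+ lungs, so that relative to it *Sftpa1* was higher by 2.96 and *Sftpd* by 4.99.

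Both rises rested in part on E18.5 *Wfdc2*GFP/GFP replicate 1, and neither passed the threshold without it. Without this library the change was 1.88 for *Sftpa1* (limma adjusted p = 0.225) and 3.28 for *Sftpd* (limma adjusted p = 0.114), in a fit in which the lone remaining library is assumed to vary like those of the other groups and in which 0 genes passed, against 2482 at an unadjusted p under 0.05. The call for *Sftpa1* was also lost under 5 of the 11 alternatives that kept all libraries, with adjusted p between 0.0519 and 0.0753, and that for *Sftpd* under none of them. Leaving out either P1.5 *Wfdc2*GFP/GFP library also ended both calls, with changes of 2.57 and 2.43 for *Sftpa1* and 4.53 and 4.52 for *Sftpd*, and leaving out either E18.5 *Wfdc2*+/+ library ended that of *Sftpa1*. Each E18.5 *Wfdc2*GFP/GFP library was below both P1.5 *Wfdc2*GFP/GFP libraries for both genes.

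Over both genotypes together, *Sftpd* rose across birth by 2.89 (SE 0.49, 95% confidence interval 1.75 to 4.02, limma adjusted p = 0.0304), and it passed the threshold without E18.5 *Wfdc2*GFP/GFP replicate 1 as well (2.27, limma adjusted p = 0.0256). It did not pass when either E18.5 *Wfdc2*+/+ library or either P1.5 *Wfdc2*GFP/GFP library was left out (2.83 to 2.95, limma adjusted p = 0.0940 to 0.116). *Sftpa1* differed by 1.32 (SE 0.36, 0.48 to 2.16, limma adjusted p = 0.0590). In this comparison 5.14% of the genes tested passed. The exact two-sided permutation test over all 70 arrangements of 4 against 4 libraries gave p = 0.0286 for *Sftpd*, the smallest it can give, and p = 0.114 for *Sftpa1*, or 0.0429 and 0.114 when adjusted over the 3 values tested in this way. When E18.5 *Wfdc2*GFP/GFP replicate 1 was left out, over 35 arrangements, the differences were 2.25 and 1.01 (adjusted exact permutation p = 0.0857 and 0.229). For *Sftpa1*, 3 of the 4 P1.5 libraries were above every E18.5 library, the exception being P1.5 *Wfdc2*+/+ replicate 1. The share of all genes with that arrangement was not counted.

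The difference between the genotypes in the change across birth was 2.36 for *Sftpa1* (SE 0.72, 95% confidence interval 0.69 to 4.04) and 3.28 for *Sftpd* (SE 0.98, 1.005 to 5.55). Neither passed the test over all genes (limma adjusted p = 0.337 and 0.323), so the change across birth was not shown to differ between genotypes. In this comparison 0 of 15627 genes passed (0%), with limma and with limma's voom alike, and 1599 (10.2%) had an unadjusted p under 0.05, among them both members. Without E18.5 *Wfdc2*GFP/GFP replicate 1 the differences were 1.75 and 2.03.

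The genotype difference was of opposite sign before and after birth for both genes, and was not called at either stage. At E18.5, *Wfdc2*GFP/GFP minus *Wfdc2*+/+ was −0.63 for *Sftpa1* (SE 0.51) and −1.36 for *Sftpd* (SE 0.69), each with limma adjusted p = 0.9998, where 0.0192% of the genes passed. Without E18.5 *Wfdc2*GFP/GFP replicate 1 these values were −0.01 and −0.11. At P1.5 the difference was 1.73 for *Sftpa1* and 1.92 for *Sftpd* (limma adjusted p = 0.331 and 0.388, with 0.0128% of the genes passing), ranks 208 and 170 from the top of 15627 genes. For both genes the *Wfdc2*GFP/GFP libraries were above the *Wfdc2*+/+ libraries, as for 12.6% of the genes tested. Without P1.5 *Wfdc2*+/+ replicate 1 the differences were 1.25 and 2.11, and without replicate 2 of that group 2.21 and 1.73. These comparisons share libraries with those across birth and are the same values read in another order.

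**Figure D2:**
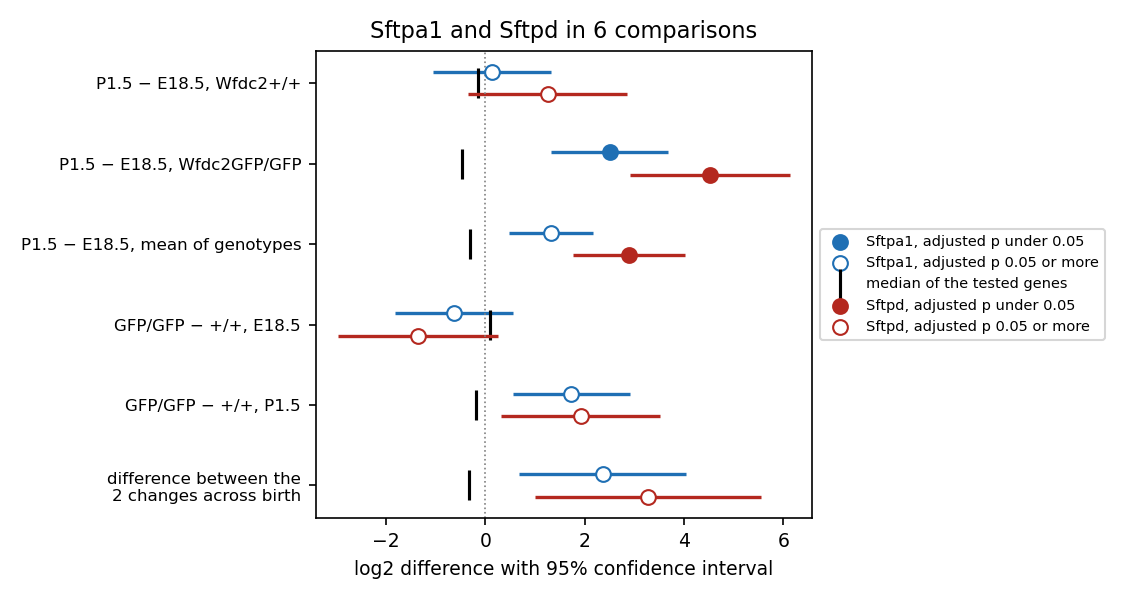
Log2 differences (horizontal axis) of *Sftpa1* and *Sftpd* in 6 comparisons, with 95% confidence intervals; filled points passed a limma adjusted p of 0.05, and black ticks mark the median of the 15627 genes tested. The 3 filled points are both genes across birth in *Wfdc2*GFP/GFP (2.50 and 4.53) and *Sftpd* across birth over both genotypes (2.89).

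The 2 collectins did not change in proportion. *Sftpa1* had 3.04 and 2.71 reads for each read of *Sftpd* in E18.5 *Wfdc2*+/+ libraries and 7.35 and 3.08 in E18.5 *Wfdc2*GFP/GFP libraries. After birth it had 0.835 and 2.11 reads in *Wfdc2*+/+ libraries and 1.12 and 1.22 in *Wfdc2*GFP/GFP libraries. Every E18.5 library had a larger ratio than every P1.5 library. This ratio is formed within a library and does not depend on how libraries are scaled to each other, although quantile normalization, which alters values within a library, also alters it. The log2 ratio of the RPKM fell by 1.57 across birth, from a mean of 3.36 to 1.79 (exact two-sided permutation test of 4 against 4 libraries, p = 0.0286, the smallest it can give, adjusted p = 0.0429 over the 3 values tested). Without E18.5 *Wfdc2*GFP/GFP replicate 1, which had the largest ratio, the fall was from 3.03 to 1.79 and the 4 P1.5 libraries were still below the other 3 (adjusted exact permutation p = 0.0857). When libraries were exchanged only within a genotype, which leaves 36 arrangements, the smallest p was 0.0556 and the ratio and *Sftpd* both stood at it (adjusted exact p = 0.0833).

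Which gene was the more abundant depended on the length used. Per kilobase of gene span, *Sftpa1* was above *Sftpd* in all 8 libraries, by a log2 difference of 1.21 to 4.35. Per kilobase of annotated exon (2860 bases for *Sftpa1* and 2417 for *Sftpd*, all transcripts joined), the difference was 1.19 to 2.63 in the E18.5 libraries, −0.50 and 0.83 in P1.5 *Wfdc2*+/+ libraries and −0.08 and 0.04 in P1.5 *Wfdc2*GFP/GFP libraries. On that scale the level of *Sftpd* was close to that of *Sftpa1* in P1.5 *Wfdc2*GFP/GFP lungs, at means of 10.28 and 10.26 log2 RPKM. This closeness holds for the joined exons only. The principal transcripts are 851 bases for *Sftpa1* and 1275 for *Sftpd*, a length that would place *Sftpa1* higher relative to *Sftpd*. The reads divided by exon length were also counted over the whole span with introns.

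The hydrophobic surfactant proteins were compared next, since AECIIs make all 4 proteins. *Sftpc*, whose product is made in AECIIs alone, differed across birth by 1.23 in *Wfdc2*+/+ lungs (SE 0.75, limma adjusted p = 0.451) and by 2.27 in *Wfdc2*GFP/GFP lungs (SE 0.75, limma adjusted p = 0.0845), and *Sftpb* by −0.40 and 0.23 (SE 0.63, limma adjusted p = 0.739 and 0.793). In *Wfdc2*GFP/GFP the values without replicate 1 of E18.5 were 1.51 for *Sftpc* and −0.48 for *Sftpb*. The level of *Sftpa1* minus that of *Sftpb* was −0.20 to 0.47 in the 4 E18.5 libraries, 1.20 and 0.53 in P1.5 *Wfdc2*+/+ and 2.05 and 2.28 in P1.5 *Wfdc2*GFP/GFP. All P1.5 libraries were above all E18.5 libraries in this difference. For *Sftpd* minus *Sftpb* it was −4.36 to −2.61 at E18.5, and after birth −0.01 and −2.02 in the *Wfdc2*+/+ libraries and 0.42 and 0.52 in those of *Wfdc2*GFP/GFP. Against *Sftpc* the stages overlapped for *Sftpa1*, at −4.85 to −4.50 in the E18.5 libraries, −6.72 and −4.60 in the P1.5 *Wfdc2*+/+ pair and −4.79 and −4.16 in the P1.5 *Wfdc2*GFP/GFP pair. *Sftpd* minus *Sftpc* was −8.92 to −7.56 at E18.5, −7.94 and −7.15 in P1.5 *Wfdc2*+/+ libraries and −6.43 and −5.92 in P1.5 *Wfdc2*GFP/GFP libraries, so that on this measure the stages overlapped in *Wfdc2*+/+ and were apart in *Wfdc2*GFP/GFP. The shares of all genes set apart by stage in their difference from *Sftpb* or from *Sftpc* were not counted. In a bulk sample fewer cells of a type and less RNA per cell cannot be told apart.

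Relative to a list of 12 AECII genes, *Sftpa1* was highest in P1.5 *Wfdc2*GFP/GFP and *Sftpd* was higher in every P1.5 library than in any E18.5 library. *Sftpa1* stood above the median log2 RPKM of the list by 2.71 and 2.52 in E18.5 *Wfdc2*+/+, 2.45 and 2.51 in E18.5 *Wfdc2*GFP/GFP, 2.66 and 3.81 in P1.5 *Wfdc2*+/+, and 4.44 and 4.37 in P1.5 *Wfdc2*GFP/GFP. On this measure the 4 E18.5 libraries lay between 2.45 and 2.71, E18.5 *Wfdc2*GFP/GFP replicate 1 included. For *Sftpd* the difference was −0.38 and −0.39, −1.90 and −0.59, 1.45 and 1.26, and 2.80 and 2.61 in the same order, and E18.5 *Wfdc2*GFP/GFP replicate 1 stayed the lowest. These differences were formed after the levels were seen and are given without a test. The share of all genes arranged in either way on this measure was not counted.

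**Figure D3:**
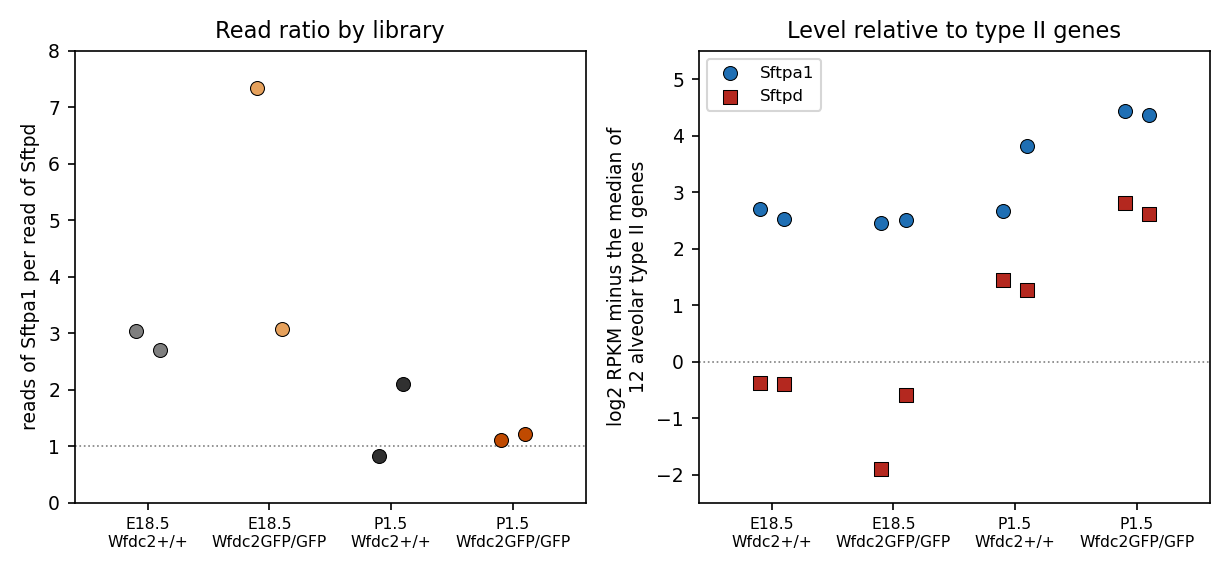
Left, reads of *Sftpa1* per read of *Sftpd* in each library; right, log2 RPKM of each gene minus the median of 12 type II alveolar epithelial cell genes in the same library; replicate 1 is to the left in each group. The read ratio is 2.71 or more in the 4 E18.5 libraries and 2.11 or less in the 4 P1.5 libraries, and *Sftpd* passes from below to above the type II median across birth.

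Within the list of AECII genes, which serve surfactant synthesis, storage in lamellar bodies and secretion, 0 of 12 passed across birth in either genotype with limma and with voom, while an unadjusted p under 0.05 was reached by 3 in *Wfdc2*+/+ and by 5 in *Wfdc2*GFP/GFP. Over all genes tested that p was reached by 11.8% in *Wfdc2*+/+ and 35.6% in *Wfdc2*GFP/GFP, the shares against which such counts in the other lists are also to be read. The median of the list was −0.54 in *Wfdc2*+/+ (−0.15 over all genes tested) and 0.18 in *Wfdc2*GFP/GFP (−0.46 over all). In *Wfdc2*GFP/GFP the largest increase was that of *Sftpc* (2.27), the member with the most reads, and the largest decrease that of *Etv5*, a transcription factor of AECIIs (−1.17, limma adjusted p = 0.125). Without E18.5 *Wfdc2*GFP/GFP replicate 1 the median in *Wfdc2*GFP/GFP was −0.36, so its sign depended on that library. The summed level of the list was 22758 to 26129 RPM in E18.5 *Wfdc2*+/+, 11529 to 28038 in E18.5 *Wfdc2*GFP/GFP, 31542 to 59049 in P1.5 *Wfdc2*+/+ and 51675 to 70255 in P1.5 *Wfdc2*GFP/GFP.

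The other collectins were measured at lower levels per kilobase of gene span, and none of them was called across birth. *Colec12*, a scavenger receptor, had 564 to 6208 reads over a long span, more than the 2047 of *Sftpd* in E18.5 *Wfdc2*GFP/GFP replicate 1, and its log2 RPKM was 0.25 or less. *Mbl1*, which lies between the 2 genes, had 28 to 172 reads per library and differed across birth by −0.08 in *Wfdc2*+/+ and −0.80 in *Wfdc2*GFP/GFP (SE 0.61, limma adjusted p = 0.9503 and 0.361). *Colec10* and *Colec12* stood at −1.51 and −1.28 in *Wfdc2*GFP/GFP and *Colec11* at 0.23, and none of these passed (limma adjusted p = 0.584, 0.301 and 0.800). *Mbl2* had at most 6 reads and was not tested. Of the 6 collectins tested, *Sftpa1* and *Sftpd* were thus the 2 that passed in *Wfdc2*GFP/GFP with limma, where 4.55% of all genes did. The same 2 had an unadjusted p under 0.05 there, and with voom *Sftpd* alone passed. In *Wfdc2*+/+ 0 passed with limma, at an unadjusted p under 0.05 or with voom.

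Neighbouring genes were examined within 200 kb on either side. *Tspan14*, *5730469M10Rik* and *Mat1a*, an S-adenosylmethionine synthase of liver, were tested besides *Mbl1*. Their differences across birth ran from −1.37 to −0.57 in *Wfdc2*+/+ and from −0.83 to −0.50 in *Wfdc2*GFP/GFP, and none passed (lowest limma adjusted p = 0.169). *Dydc1* and *Dydc2* had at most 92 reads, *Gm2832* at most 3, and *Gm5798* and *Gm7945* had 0 reads in every library, and these 5 were not tested.

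Of 14 transcription factors known to act on the SP-A or SP-D gene, 13 were in the data and all 13 were tested. Across birth in *Wfdc2*GFP/GFP 0 rose and 1 fell with limma, against 4.55% of all genes called in either direction. There 0 passed with voom, and 5 had an unadjusted p under 0.05. The median was 0.64, and 0.27 without E18.5 *Wfdc2*GFP/GFP replicate 1, where the median of all genes was −0.46 and −0.42. *Foxa1*, a forkhead factor of endoderm, fell by 1.64 on the log2 scale (limma adjusted p = 0.0432), and stood at −1.74 (limma adjusted p = 0.220) without E18.5 *Wfdc2*GFP/GFP replicate 1. *Jund*, an AP-1 subunit, differed by 2.55 (limma adjusted p = 0.0536), and by 1.61 without that library. *Nkx2-1*, the member with the most reads summed over the libraries, differed by −1.05 (limma adjusted p = 0.104), although *Jund* had the higher mean RPM (248 against 243). In *Wfdc2*+/+ 0 passed with limma, at an unadjusted p under 0.05 or with voom, with a median of 0.40, and *Foxa1*, *Jund* and *Nkx2-1* stood at −0.74, 1.31 and −0.27.

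Among 9 receptors and binding partners of the collectins, 1 rose in *Wfdc2*GFP/GFP across birth, where 4.55% of all genes were called. With voom the same gene was called, and 3 of the 9 had an unadjusted p under 0.05. *Cd14*, a lipopolysaccharide co-receptor to which SP-A and SP-D bind, had 140 to 216 reads in the E18.5 libraries, 578 and 220 in P1.5 *Wfdc2*+/+ and 875 and 2156 in P1.5 *Wfdc2*GFP/GFP, and rose by 3.46 (limma adjusted p = 0.0275), or 3.12 without E18.5 *Wfdc2*GFP/GFP replicate 1 (limma adjusted p = 0.190). Calreticulin (*Calr*), the member with the most reads, stood at 0.05, and *Lrp1*, its partner on phagocytes, at −0.92 (limma adjusted p = 0.945 and 0.117). The median was 0.05, or 0.06 without that E18.5 library. In *Wfdc2*+/+ the median was −0.05 and 0 of 9 passed with limma and with voom, with 1 at an unadjusted p under 0.05, which was *Cd14* (1.47).

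Of 5 genes of surfactant turnover, 0 passed in either genotype with limma and with voom, and 1 in each, *Prdx6*, had an unadjusted p under 0.05. *Prdx6*, whose product degrades surfactant phospholipid, differed by 1.20 in *Wfdc2*+/+ and 1.28 in *Wfdc2*GFP/GFP (limma adjusted p = 0.399 and 0.0998). *Csf2ra*, a chain of the GM-CSF receptor through which alveolar macrophages are prepared to clear surfactant, stood at −0.21 and −1.64 (limma adjusted p = 0.888 and 0.143). The medians were 0.14 in *Wfdc2*+/+ and 0.02 in *Wfdc2*GFP/GFP, the latter 0.22 without E18.5 *Wfdc2*GFP/GFP replicate 1. Over these 4 lists and the AECII genes, without the pair, 2 of 43 genes passed in *Wfdc2*GFP/GFP with limma, against 4.55% of all genes. With voom 1 of them passed.

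**Figure D4:**
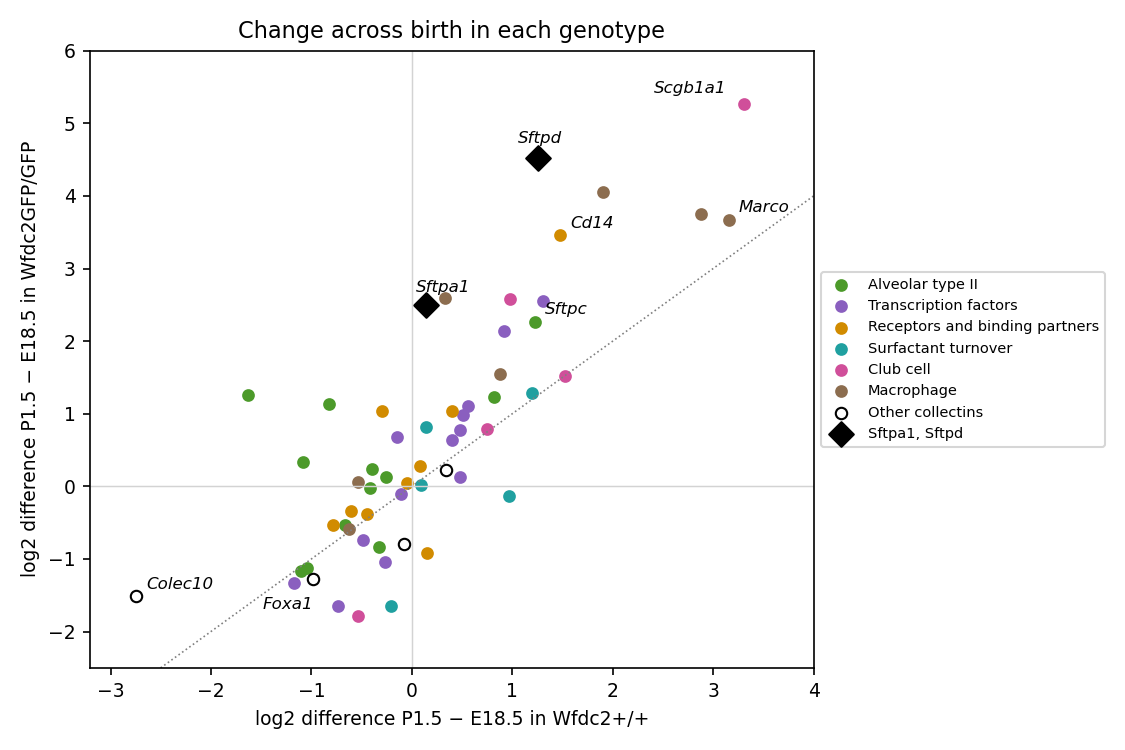
Log2 difference between P1.5 and E18.5 in *Wfdc2*+/+ (horizontal axis) and in *Wfdc2*GFP/GFP (vertical axis). Points are the tested genes of the collectin, AECII, transcription factor, receptor, turnover, club cell and macrophage lists, and the other lists are not drawn. The dotted line marks equal change. *Sftpa1* (0.14 and 2.50) and *Sftpd* (1.25 and 4.53) lie above the line, as do *Cd14* (1.47 and 3.46) and *Scgb1a1* (3.31 and 5.27). So do 27 of the 43 genes other than the pair in the collectin, AECII, transcription factor, receptor and turnover lists. Without E18.5 *Wfdc2*GFP/GFP replicate 1, *Scgb1a1* is at 3.31 and 3.35, close to the line.

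Some markers of other cell types also moved across birth. Among 5 club cell genes, the other cells that make SP-A and SP-D, *Scgb1a1* rose by 5.27 in *Wfdc2*GFP/GFP (limma adjusted p = 0.0459) and differed by 3.31 in *Wfdc2*+/+ (limma adjusted p = 0.342), and the summed level of the list was 2257 to 2921, 741 to 2595, 8481 to 18001 and 8805 to 9864 RPM in E18.5 *Wfdc2*+/+, E18.5 *Wfdc2*GFP/GFP, P1.5 *Wfdc2*+/+ and P1.5 *Wfdc2*GFP/GFP. Among 7 macrophage genes, *Marco*, a scavenger receptor, rose by 3.67 in *Wfdc2*GFP/GFP (limma adjusted p = 0.0331) and differed by 3.16 in *Wfdc2*+/+ (limma adjusted p = 0.103). The summed level of this list was 639 to 700, 152 to 464, 715 to 1140 and 1240 to 1291 RPM in the same order. Among 5 alveolar type I genes, the water channel gene *Aqp5* rose by 4.26 in *Wfdc2*GFP/GFP (limma adjusted p = 0.04997) and differed by 1.26 in *Wfdc2*+/+ (limma adjusted p = 0.487). The list summed to 2894 to 3413, 1102 to 3106, 4306 to 7113 and 5247 to 7360 RPM. With limma 1 gene was called in each of these lists in *Wfdc2*GFP/GFP, against 4.55% of all genes, and with voom *Marco* alone. The list medians in *Wfdc2*GFP/GFP were 1.52, 2.60 and 0.44 for club cell, macrophage and alveolar type I genes (−0.46 over all). Without E18.5 *Wfdc2*GFP/GFP replicate 1 they were 0.72, 1.49 and −0.05 (−0.42 over all). The medians in *Wfdc2*+/+ were 0.98, 0.88 and 0.62 (−0.15 over all). Higher at P1.5 in *Wfdc2*GFP/GFP were 4 of 5, 6 of 7 and 3 of 5 genes. The largest decreases were those of *Cldn10* (−1.79, limma adjusted p = 0.0711), *Adgre1* (−0.59) and *Rtkn2* (−0.70). Without E18.5 *Wfdc2*GFP/GFP replicate 1, 0 genes of these lists passed across birth in *Wfdc2*GFP/GFP, and *Scgb1a1*, *Marco* and *Aqp5* stood at 3.35, 2.89 and 2.58 (limma adjusted p = 0.130, 0.165 and 0.196). The part of these cell types in the values of *Sftpa1* and *Sftpd* was not tested.

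The remaining marker lists had 0 genes called across birth in *Wfdc2*GFP/GFP with limma and with voom. They were 5 genes of general epithelium, with 1 at an unadjusted p under 0.05, 5 of cardiac muscle with 2, 4 of hepatocytes with 1, 2 of erythroid cells with 2, and *Xist* and *Ddx3y* with 0. Epithelial markers summed to 1537 to 1696, 1257 to 1621, 949 to 2838 and 2178 to 2266 RPM in the 4 groups, cardiac markers to 93.5 to 194, 143 to 566, 248 to 610 and 511 to 674, and erythroid markers to 1158 to 1338, 248 to 1052, 995 to 1016 and 2250 to 2764. Hepatocyte markers summed to at most 3.04 RPM, apart from 8.06 and 96.9 in the P1.5 *Wfdc2*+/+ libraries, and *Serpina1a* was at or under 3 reads in every library of the other 3 groups. Their part in the values of the pair was not tested.

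The genes whose profile over the 8 libraries was most like that of each collectin were named by Pearson's r of log2 RPKM among the tested genes that varied by at least 1. For *Sftpa1* they were *Hcls1*, *Efna1*, *Ndufb6*, *Tuba1a* and *Il1rn*, with r from 0.979 to 0.987. For *Sftpd* they included *Coro1a*, *0610010O12Rik*, *Ppp1r14b* and *Sdf4*, with r from 0.990 to 0.996. The r between the pair was 0.917, which placed *Sftpd* at rank 189 among the genes most like *Sftpa1* and *Sftpa1* at rank 475 among those most like *Sftpd*. By the root mean square difference of centred profiles, which counts the size of a change as well as its shape, *Hcls1* and *Tuba1a* stayed among the 5 nearest to *Sftpa1*, and the 5 nearest to *Sftpd* were *Crygn*, *Aqp5*, *Nog*, *Cd52* and *Lcn2*, of which *Crygn* had at most 53 reads. The r between the pair was 0.873 without E18.5 *Wfdc2*GFP/GFP replicate 1, and of the 5 genes most like each collectin 0 remained among the 5 for *Sftpa1* and 2 for *Sftpd*. These coefficients describe 8 points that share the group structure, the depth and the composition of their libraries.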

How the data were processed

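Total lung RNA was purified with Isogen and made into directional libraries (NEBNext Ultra), which per the labels were processed with CASAVA 1.8, Trim Galore 0.4.0 and TopHat2 2.1.1 on mm10. The authors counted reads in SeqMonk and deposited log2 RPKM, over the whole gene span with introns. Whether counting used strand is not given in the sources used here. The paper names more than a single Illumina sequencer model without saying which library ran on which, and sequencer entered no fit. Zero counts carry the value of 0.9 read. Reads were recovered from the deposited values, of which 99.86% to 99.97% per library were whole within 0.02. Totals of 19457647 to 37209333 put 3 reads, the detection limit used, at 0.0806 to 0.154 RPM, counting error only.

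Libraries were grouped by stage and genotype from the labels. All genes averaging 0.05 RPKM or more (15627) entered a limma fit (version 3.58.1, R 4.3.3) of the 4 group means, with a trended prior, 4 residual degrees of freedom and prior degrees of freedom of 3.81. Two-sided p-values were corrected over these genes (Benjamini-Hochberg) and called below 0.05. A permutation test of 2 against 2 libraries cannot go below 0.33, so such tests used 4 against 4. Alternatives were a pseudocount of 0.1 or 1 RPKM, other filters, median centring, quantile normalization, the replicate number as a block, a robust prior, the 4 libraries compared alone, voom on recovered reads and each library left out. Centring on genes spanning under 15 kb, and list counts, permutations and profile likeness without 1 library, were added after seeing the data.

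The members and lists were chosen with earlier results of these data known. Named genes were the pair, genes within 200 kb, the 5 genes most like each member (1 of them is not reported here), and from each list the largest rise, the largest fall and the most abundant member. *Prdx6*, *Colec11*, *Colec12*, *Marco*, *Aqp5* and *Scgb1a1* were named after their values were seen. List symbols were matched to older names through RefSeq (GRCm38.p6), and *Cebpd* and *Hbb-bt* were not analysed here. Python 3.11.15 made the summaries and figures.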

Additional observations from a re-analysis of the deposited data

Results flagged for a closer look

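Of 45 genes in the lists, 2 had genotype differences of opposite sign at E18.5 and P1.5 without overlap between libraries, against 9.92% of the 15627 genes tested, and 3 had opposite changes across birth in the 2 genotypes, against 5.65%. These shares are near or below those over all genes, and none of the differences passed limma's test over all genes. *Lamp3*, a lamellar body membrane gene of AECIIs, was lower in *Wfdc2*GFP/GFP than in *Wfdc2*+/+ at E18.5 (log2 RPKM of 2.38 and 2.43 against 3.17 and 3.33) and higher at P1.5 (2.66 and 2.82 against 2.14 and 2.20), so it also changed across birth in opposite directions in the genotypes, with a difference between the changes of 1.42 (SE 0.37, limma adjusted p = 0.271) and 1.40 without E18.5 *Wfdc2*GFP/GFP replicate 1. *Cxcl15*, a lung epithelial chemokine gene, showed the same arrangement both between genotypes and across birth, at 5.41 and 7.17 against 7.40 and 7.52 at E18.5 and 7.45 and 7.39 against 6.12 and 7.14 at P1.5, with a difference of 1.96 (SE 0.84, limma adjusted p = 0.486) and 1.07 without that library. *Tlr2*, a receptor for bacterial lipoproteins to which SP-A binds, was lower at P1.5 than at E18.5 in *Wfdc2*+/+ and higher in *Wfdc2*GFP/GFP, with a difference of 1.33 (SE 0.52, limma adjusted p = 0.441) and 1.07 without that library.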

How the results depend on the processing

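Over all alternatives *Sftpa1* and *Sftpd* kept the direction of their change across birth in *Wfdc2*GFP/GFP and over both genotypes. They also kept that of the genotype difference at P1.5 and of the difference between genotypes in the change across birth. The genotype differences at E18.5 stayed negative, but most of their size rested on E18.5 *Wfdc2*GFP/GFP replicate 1. Without that library they were −0.01 for *Sftpa1* and −0.11 for *Sftpd*. The direction for *Sftpa1* across birth in *Wfdc2*+/+ turned with quantile normalization (−0.30) and without P1.5 *Wfdc2*+/+ replicate 2 (−0.34), and the cause was not tested. With 2 libraries a group, a fit that leaves one out has fewer residual degrees of freedom by construction.

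The *Sftpa1* rise in *Wfdc2*GFP/GFP was no longer called with a pseudocount of 1 RPKM (2.49, adjusted p = 0.0595), without a filter (2.50, 0.0605), with quantile normalization (1.68, 0.0753), with the replicate block (2.50, 0.0610) or with voom (2.50, 0.0519). Over both genotypes *Sftpa1* was called with a filter at a mean of 0.5 RPKM (1.32, 0.0397), with median centring (1.79, 0.0481) with centring on short genes (1.42, 0.0409) and with the block within stage (1.32, 0.0269), and *Sftpd* was not called without a filter (2.89, 0.0575). In the exact permutation test, median centring put *Sftpa1* at 1.79 (adjusted p = 0.0286), and exchanging within genotype put *Sftpd* at 2.89 and the ratio at −1.57 (0.0833 for both), while leaving out E18.5 *Wfdc2*GFP/GFP replicate 1 put them at 2.25 and −1.24 (0.0857 for both). Per kilobase of exon the mean log2 difference of *Sftpa1* over *Sftpd* in the 8 libraries was 0.86, against 2.58 per kilobase of span.

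With each library left out, *Sftpa1* changed across birth by −0.34 to 0.62 and *Sftpd* by 1.06 to 1.44 in *Wfdc2*+/+, in *Wfdc2*GFP/GFP from 1.88 to 3.12 and from 3.28 to 5.77, and over both genotypes from 1.01 to 1.63 and from 2.27 to 3.51. The numbers of genes called then ran from 0 to 2166, 0 to 4874 and 28 to 7125 in these 3 comparisons, from 0 to 1 and 0 to 24 for genotype at E18.5 and P1.5, and from 0 to 2 for the difference between the changes.

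With all libraries, 9 genes were called across birth in *Wfdc2*+/+, 711 in *Wfdc2*GFP/GFP, 803 over both genotypes, 3 for genotype at E18.5 and 2 at P1.5. In this order the counts were 16, 608, 1004, 6 and 11 with a pseudocount of 0.1 RPKM and 17, 237, 461, 3 and 5 with 1 RPKM, 35, 349, 428, 22 and 21 without a filter and 52, 1011, 1684, 1 and 3 with the filter at 0.5 RPKM. They were 5, 1279, 1842, 0 and 0 with median centring, 49, 706, 1278, 0 and 0 with quantile normalization and 5, 1567, 2518, 0 and 0 with centring on short genes, and 4, 540, 670, 3 and 2 with the robust prior and 0, 129, 685, 0 and 0 with voom. The groups compared alone gave 0, 3036, 1 and 0, without a fit over both genotypes. Median centring moved the median gene in *Wfdc2*GFP/GFP from −0.46 to 0.21 and the share of increases among the calls from 35.4% to 66.4%, and over both genotypes from 50.2% to 69.4%.

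The controls were littermates, but no source says that a replicate number marks a litter. The correlation of same-numbered deviations was 0.23 between the genotypes at E18.5 and 0.21 at P1.5, and ran from −0.29 to 0.08 between stages, where no litter can be shared. With 2 pairs at a stage, the number was not taken to pair the libraries. In every group the number also separated the library with *Xist* from the library with *Ddx3y*, so a block by number is also a block by these sex-linked RNAs. The replicate block gave 0, 125, 287, 0 and 0 calls, and the block within stage 105, 4160, 4990, 1 and 9. The first ended the call of *Sftpa1* in *Wfdc2*GFP/GFP, the second added that of *Sftpa1* over both genotypes, and neither changed another call for the pair. Depth did not limit the pair, whose smallest count was 2047 reads.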
